A study of Dugesia japonica with 18 samples.

Results

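The Piwi family of the planarian Dugesia japonica was represented by 6 unigenes of 267235 in the deposited table, each listed under its assembly identifier and described there as a Piwi-like protein or Ago3. A unigene is a set of assembled transcripts treated as a gene. Planarians are flatworms that rebuild a whole body from a fragment. Messenger RNA was sequenced from head, trunk and tail fragments on days 0, 1, 3, 5, 7 and 10, with 1 library for each of the 18 combinations. Each library was built from polyA-selected RNA of 10 to 20 pooled animals. No treatment, strain or age is given in the sources used here, and neither is what day 0 stands for, so it may or may not be an uncut state. There were no repeats of a fragment on a day: the days stood in for repeats of a fragment, and the fragments for repeats of a day.

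Piwi proteins are a branch of the Argonaute family that binds piRNAs, small RNAs which guide them to transposon transcripts and some messenger RNAs for cutting or silencing. In most animals they act mainly in the germ line. In planarians they are also made in neoblasts, the dividing stem cells that supply every other cell type during regeneration. A Piwi transcript is widely used to mark these cells in the planarian Schmidtea mediterranea.

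Of the 6 members, 3 carried nearly all of the signal. The unigene TRINITY_DN2453_c0_g1 was described as DjPiwiA and as Piwi-like protein 1; the protein of that name in S. mediterranea, SMEDWI-1, is the usual neoblast marker. TRINITY_DN3080_c0_g1 was described as DjPiwiB and as Piwi-like protein 2; in S. mediterranea SMEDWI-2 is needed for stem cell descendants to replace lost tissue. TRINITY_DN643_c0_g1 was described as DjPiwiC and as Ago3, which in Drosophila is a Piwi protein that cuts transposon RNA while making new piRNAs. These 3 unigenes are called DjPiwiA, DjPiwiB and DjPiwiC from here on. They held 99.2% of the 195655 counts of the 6 members: 25.9% for DjPiwiA, 42.3% for DjPiwiB and 31.0% for DjPiwiC. Shares of counts are not levels per transcript, since transcript lengths were not used here.

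The other 3 members were scarce. TRINITY_DN13637_c0_g1, described only as a Piwi-like protein, had 969 counts over all libraries. TRINITY_DN35174_c0_g1, with the descriptions of DjPiwiA, had 329. TRINITY_DN19200_c0_g1, with those of DjPiwiB, had 189. Because the last of these share their descriptions with abundant members, reads may have been split between near-identical sequences, and their values are uncertain. All 6 members passed the filter on low counts, at least 1 CPM (counts per 1000000 counts of the library) in at least 3 libraries. TRINITY_DN19200_c0_g1 did so with exactly 3 libraries at that level and TRINITY_DN35174_c0_g1 with 7. A further 27 unigenes were described as Piwi but are not members; together they held 1663 counts, 0.843% of all Piwi counts, and between 0.403% and 1.46% in a single library. Of these, 1 passed the filter: TRINITY_DN9094_c0_g1, described as Piwi-like protein 1, with a mean of 0.716 CPM in head, 0.891 in trunk and 0.527 in tail and no called difference between fragments (lowest adjusted p 0.22, edgeR).

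Library totals ran from 17547716 to 21229980 counts. In these libraries 1 unigene, the most abundant, took between 13.0% of the counts (head, day 1) and 49.6% (tail, day 0), so levels below are CPM after trimmed-mean (TMM) scaling with factors between 0.680 and 1.499. The head library of day 1 had the highest factor and the smallest share of that unigene. Differences between fragments were tested with the quasi-likelihood test of edgeR on fragment plus day over 23616 unigenes, with Benjamini-Hochberg adjusted p and a threshold of 0.05. The p-values rest on deviations of single fragment-and-day libraries from that additive model, not on the spread between replicate pools. In whole fragments, fewer Piwi-expressing cells and less Piwi RNA per cell cannot be told apart.

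DjPiwiA was highest in trunk in 4 of the 6 days. In trunk it stood at 228, 185, 245, 168, 174 and 126 CPM on days 0, 1, 3, 5, 7 and 10. In head the same days gave 64.4, 148, 91.1, 188, 124 and 136 CPM, and in tail 80.1, 150, 113, 157, 105 and 91.0 CPM. The head and tail values of day 0 were the lowest of all 18 libraries, while trunk on days 0 and 3 was above every head and tail library; the ranges of the 3 fragments overlapped. The mean was 187 ± 43.0 CPM in trunk, 125 ± 43.6 in head and 116 ± 31.2 in tail (SD, n = 6 days). DjPiwiA was higher in trunk than in tail by 0.75 ± 0.23 (SE) on the log2 scale (adjusted p = 0.0243), a 1.68-fold difference with the same direction on 6 of 6 days. It was lower in head than in trunk by -0.64 ± 0.23 (adjusted p = 0.0457), on 4 of 6 days. Both calls were narrow. The trunk and tail call was lost without the trunk library of day 3 (adjusted p = 0.0708) or the tail library of day 0 (0.063), 3 (0.0502), 7 (0.0517) or 10 (0.0519). The head and trunk call was lost when any of 13 of the 18 libraries was left out, and kept without head of day 5 or 10 or trunk of day 1, 5 or 10.

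DjPiwiB separated trunk from tail without overlap under TMM, but not when scaled by library totals without the most abundant unigene. Its trunk values on the successive days were 345, 293, 314, 231, 265 and 209 CPM. Its tail values were 156, 198, 178, 201, 185 and 190 CPM, the most even course of the 3 fragments, with every value below the lowest trunk library. In head it stood at 184, 344, 173, 263, 205 and 218 CPM, with the day 1 library level with the highest trunk library and days 0 and 3 within the tail range. The means were 276 ± 51.2 CPM in trunk, 231 ± 63.6 in head and 184 ± 16.4 in tail (SD, n = 6 days). The trunk was higher than the tail on the log2 scale by 0.58 ± 0.15 (edgeR, adjusted p = 0.0063), 1.498-fold, on 6 of 6 days. Head and trunk were not called different, at -0.28 ± 0.15 (adjusted p = 0.145, approximate 95% interval -0.61 to 0.05). Without the head library of day 1 that difference was -0.39 and was called (adjusted p = 0.0423).

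**Figure D1:**
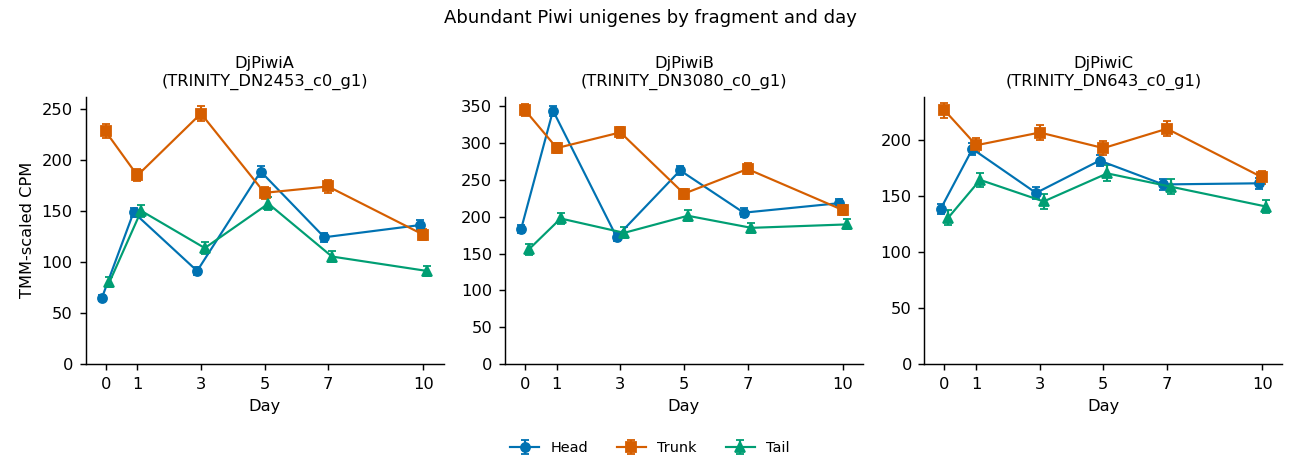
TMM-scaled CPM (y axis) of DjPiwiA, DjPiwiB and DjPiwiC on each day (x axis) in head (circles), trunk (squares) and tail (triangles), 1 library per point, with exact Poisson 95% intervals that cover counting error only. Trunk started highest on day 0 for all 3, and on day 10 the fragments lay closer together (DjPiwiB 2.21-fold between highest and lowest fragment on day 0, 1.15-fold on day 10).

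Over days, DjPiwiC varied less than the other abundant members in head and trunk, while in tail the ratio of highest to lowest library was 1.30 for it and 1.29 for DjPiwiB. Trunk values were 227, 196, 207, 193, 211 and 167 CPM, head values 139, 192, 153, 182, 161 and 162 CPM, and tail values 131, 165, 145, 171, 159 and 141 CPM. On each of the 6 days trunk was highest and tail lowest, with head between them, although the ranges over days overlapped. Its means were 200 ± 20.2 CPM in trunk, 165 ± 19.5 in head and 152 ± 15.2 in tail (SD, n = 6 days). It was higher in trunk than in tail by 0.40 ± 0.09 on the log2 scale (edgeR, adjusted p = 0.00175), 1.32-fold. It was lower in head than in trunk by -0.29 ± 0.09 (adjusted p = 0.0145), though not under scalings by library totals, which gave 0.01 and 0.07. That call was also lost without the head library of day 0 (adjusted p = 0.0567). Head and tail differed by 0.12 ± 0.09 (adjusted p = 0.307, approximate 95% interval -0.08 to 0.31), so that these neighbours in the order were not told apart.

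TRINITY_DN13637_c0_g1 was a low-count member whose tail libraries all lay under its trunk libraries. In trunk it stood at 3.74, 3.23, 3.63, 3.83, 3.597 and 2.71 CPM on the 6 days, from 49 to 74 counts. In tail it stood at 0.67, 2.53, 2.57, 2.42, 0.95 and 0.87 CPM, from 8 to 40 counts, and no tail library reached the lowest trunk library. In head it went from 0.92 on day 0 to 1.91, 4.64, 3.12, 3.08 and 4.001 CPM, so that the head library of day 0 was near the tail level and that of day 3 was the highest of all 18. Trunk was higher than tail by 1.16 ± 0.34 on the log2 scale (edgeR, adjusted p = 0.0137), 2.24-fold, on 6 of 6 days. Head against tail reached 0.82 ± 0.34 (adjusted p = 0.0659) and was not called.

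The remaining members were too scarce for firm statements. TRINITY_DN35174_c0_g1 ranged from 0.392 to 1.22 CPM in head, 0.763 to 2.07 in trunk and 0.374 to 2.27 in tail, all overlapping. TRINITY_DN19200_c0_g1 ranged from 0.459 to 1.14 CPM in head, 0.152 to 0.763 in trunk and 0.0681 to 0.749 in tail; the tail library of day 7 held 1 count. Neither was called in any fragment comparison. For TRINITY_DN19200_c0_g1 head against tail the log2 fold change was 1.05 ± 0.49 (edgeR, adjusted p = 0.107), with an approximate 95% interval of -0.06 to 2.15.

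**Figure D2:**
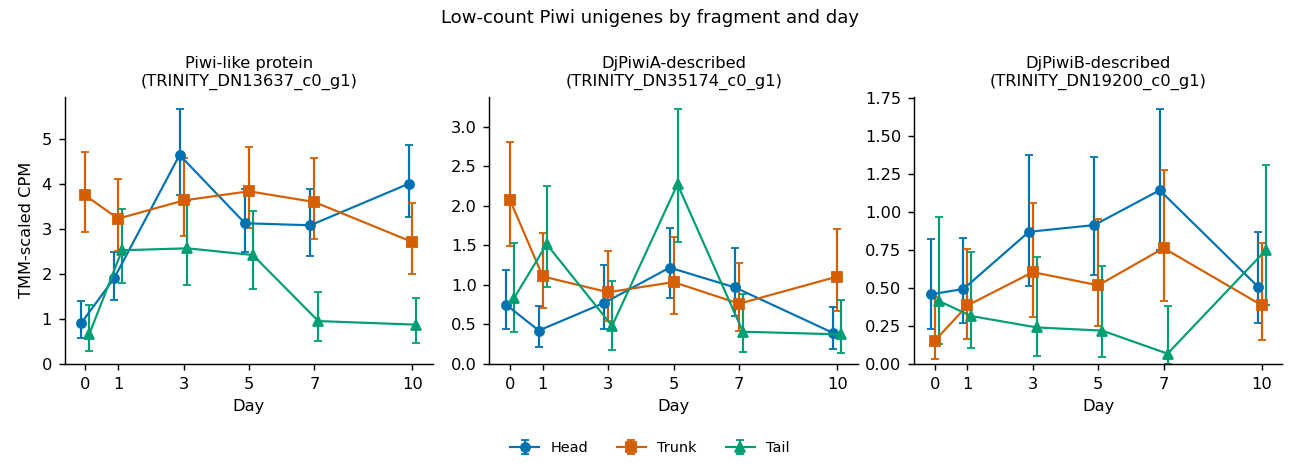
TMM-scaled CPM (y axis) of the 3 low-count members on each day (x axis) in head (circles), trunk (squares) and tail (triangles), 1 library per point, with exact Poisson 95% intervals that cover counting error only. For TRINITY_DN13637_c0_g1 every trunk library (2.71 to 3.83 CPM) lies above every tail library (0.67 to 2.57 CPM), whereas the other panels overlap.

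Over the family, trunk against tail was the fragment difference with the most calls: 4 of 6 members were higher in trunk, where 35.6% of all tested unigenes were called and 18.1% were called higher in trunk. Under TMM the libraries of 2 members, DjPiwiB and TRINITY_DN13637_c0_g1, did not overlap, as was so for 8.51% of tested unigenes in that direction. Those of DjPiwiB overlapped with totals that leave out the most abundant unigene. The members' median log2 fold change was 0.49, against 0.00 over all tested unigenes. In head against trunk, 2 of 6 members were lower in head, where 39.6% of all tested unigenes were called and 21.7% were called lower; with so many unigenes called, this share is near the background. In head against tail 0 of 6 members were called by edgeR, against 38.0% of all tested unigenes, with 2 members at an unadjusted p under 0.05 and 1 called by DESeq2, TRINITY_DN13637_c0_g1. The 3 comparisons share libraries and are not independent.

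**Figure D3:**
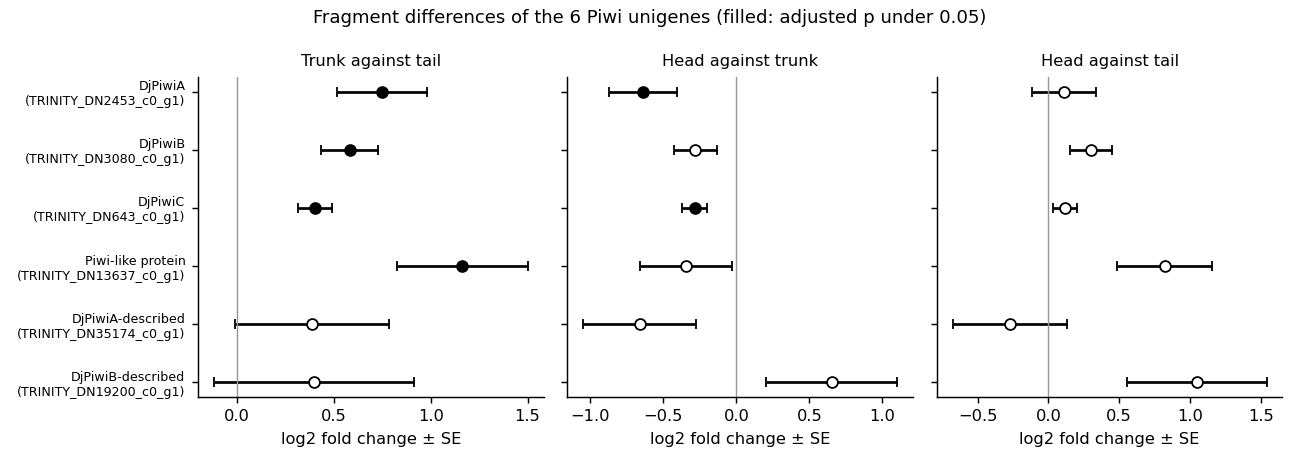
Log2 fold change ± SE (x axis) of each member (y axis) in the 3 fragment comparisons, from edgeR on 18 libraries; filled points have an adjusted p under 0.05 over all tested unigenes. In trunk against tail all 6 points are above 0 and 4 are filled; in head against tail none is filled.

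Averaged over days, the sums over the 6 members were highest in trunk and lowest in tail. The family mean was 669 ± 110 CPM in trunk, 526 ± 118 in head and 455 ± 61.1 in tail (SD, n = 6 days). Under library totals the means of trunk and head were close, at 687 ± 138 and 677 ± 223 CPM, with 357 ± 68.3 in tail. Under TMM the highest library was trunk on day 0 at 805 CPM, and the lowest was tail on day 0 at 369 CPM. Head was above trunk on day 1 (688 against 678 CPM), day 5 (638 against 597) and day 10 (521 against 507). Head did not move steadily over days, at 389 CPM on day 0, 688 on day 1, 423 on day 3 and 638 on day 5. The make-up of the family moved most in head, where the share of DjPiwiA in the family's counts went from 16.5% on day 0 to 29.5% on day 5. In trunk that share stayed between 24.96% and 31.8%, and in tail between 21.5% and 29.4%.

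The scaling decided which members were called in the comparisons with head, and changed the calls of trunk against tail less. The sizes moved there too. For DjPiwiC in trunk against tail the log2 fold change was 0.40 under TMM and 0.81 under library totals. It was 0.30 with totals that leave out the most abundant unigene. Relative to the median of all tested unigenes, DjPiwiC in head against trunk was -0.28 under TMM and -0.29 under library totals, but its unadjusted log2 fold change turned from -0.29 to 0.01 because library totals moved the median of all unigenes by 0.30. Under library totals 5 members were called in head against tail, where 71.3% of all tested unigenes were, and 0 in head against trunk, where 45.2% were. Leaving the most abundant unigene out of the totals gave 4 and 0, where 45% and 53.1% of all tested unigenes were called. In trunk against tail these scalings gave 4 and 3 calls, all higher in trunk, where 45.2% and 36.1% of all tested unigenes were called; the lost call was DjPiwiA (adjusted p = 0.0716).

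**Figure D4:**
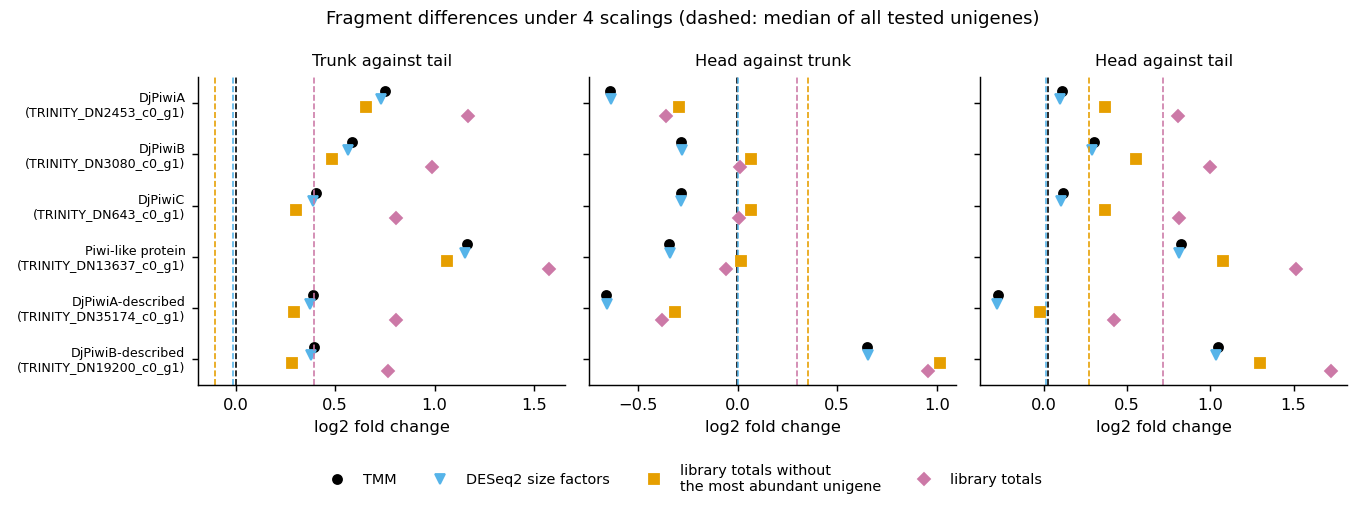
Log2 fold change (x axis) of each member (y axis) under 4 ways of scaling the counts, with the median of all tested unigenes under the same scaling as a dashed line of the same colour. The points move with the dashed lines: in head against tail library totals moved that median to 0.72, and in trunk against tail every point stays above its own line.

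No member was called for a change over days. By the F test over days in edgeR 0 of 6 members were called, where 4.59% of all tested unigenes were; 0 had an unadjusted p under 0.05 and 0 were called by DESeq2. The adjusted p-values ran from 0.462 to 0.872. Against day 0, 0 members were called on day 1, 3, 5, 7 or 10, where 0.364%, 0.847%, 5.0%, 1.01% and 1.02% of tested unigenes were. The single member with an unadjusted p under 0.05 in these 5 comparisons was TRINITY_DN13637_c0_g1 on day 3, at 1.17 ± 0.47 (edgeR, adjusted p = 0.371). DjPiwiA on day 5 was at 0.64 ± 0.33 against day 0 (adjusted p = 0.308), with an approximate 95% interval of -0.08 to 1.37. A shared slope over log2(day + 1) called 0 members in edgeR, where 3.6% of tested unigenes were called; 0 had an unadjusted p under 0.05 and DESeq2 called 0.

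For the 3 abundant members the highest and lowest fragments were closer on day 10 than on day 0, without a called difference in slope. The ratio of the highest to the lowest fragment was 3.54 on day 0 and 1.49 on day 10 for DjPiwiA, with 2.69 on day 3 and 1.2003 on day 5. For DjPiwiB it was 2.21 on day 0 and 1.15 on day 10, and for DjPiwiC 1.73 and 1.19. The narrowing was uneven: on day 1 the DjPiwiA ratio was 1.24, below that of day 10. With days 0 to 3 fitted alone, DjPiwiA was lower in head than in trunk by -1.17 ± 0.27 (edgeR, adjusted p = 0.0175), and with days 5 to 10 alone the difference was -0.07 ± 0.13 (adjusted p = 0.725). In trunk against tail the same splits gave 1.001 ± 0.27 (adjusted p = 0.0375) and 0.44 ± 0.13 (adjusted p = 0.0277) for DjPiwiA. DjPiwiB gave 0.85 ± 0.21 (adjusted p = 0.0164) and 0.30 ± 0.11 (adjusted p = 0.0526). In head against tail DjPiwiA was at -0.17 ± 0.27 (adjusted p = 0.681) on days 0 to 3 and 0.38 ± 0.13 (adjusted p = 0.058) on days 5 to 10. TRINITY_DN13637_c0_g1 was higher in head than in tail on days 5 to 10, by 1.36 ± 0.35 (adjusted p = 0.0141), and was at 0.29 ± 0.45 (adjusted p = 0.686) on days 0 to 3. The ratio of highest to lowest fragment for that member was 5.63 on day 0 and 4.58 on day 10, and for TRINITY_DN35174_c0_g1 2.76 and 2.95. The difference between these splits was tested only through the slopes. The F test of fragment-specific slopes in edgeR called 0 of 6 members, where 1.5% of tested unigenes were called; 0 had an unadjusted p under 0.05, DESeq2 called 0, and the adjusted p-values ran from 0.544 to 0.937. The slope of DjPiwiB in trunk was -0.18 ± 0.08 per log2(day + 1) and was not called (unadjusted p = 0.0454, adjusted p = 0.805); within trunk 0 members and 0.106% of tested unigenes were called. That of TRINITY_DN13637_c0_g1 in head was 0.53 ± 0.20 (unadjusted p = 0.0162, adjusted p = 0.243), where 0 members and 1.39% of tested unigenes were called. Within tail 0 members were called, against 5.41% of tested unigenes, and 0 had an unadjusted p under 0.05.

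The 3 abundant members varied together from library to library. Across the 18 libraries, which share their fragments and scaling, the Pearson correlation of log2(CPM + 1) was 0.91 between DjPiwiA and DjPiwiC, 0.91 between DjPiwiB and DjPiwiC and 0.82 between DjPiwiA and DjPiwiB. Taken within fragments, after removing each fragment's mean, the values were 0.88, 0.85 and 0.76. TRINITY_DN13637_c0_g1 reached 0.67 with DjPiwiA and 0.46 with DjPiwiB. The weak members TRINITY_DN35174_c0_g1 and TRINITY_DN19200_c0_g1 correlated at -0.20 with each other. These are descriptions, without a test.

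Among 5524 named unigenes with a mean of at least 5 CPM, the course of DjPiwiA over the 18 libraries was most like that of a KH domain RNA-binding protein (TRINITY_DN22971_c0_g1, r = 0.94), high affinity cationic amino acid transporter 1 (TRINITY_DN5042_c0_g1, 0.94), which imports arginine and lysine, and the DNA replication licensing factor MCM7 (TRINITY_DN4879_c0_g1, 0.93), part of the helicase that opens DNA for copying. DjPiwiB was most like THO complex subunit 4-A (TRINITY_DN3307_c0_g1, 0.95), a messenger RNA export adaptor, then Nucleolysin TIA-1 (TRINITY_DN7190_c0_g1, 0.93), an RNA-binding protein, and translocon-associated protein subunit alpha (TRINITY_DN19548_c0_g1, 0.92). DjPiwiC was most like the same transporter (0.97), a second KH domain protein (TRINITY_DN3433_c0_g1, 0.95) and the same export adaptor (0.92). For the scarce members, the nearest were interleukin enhancer-binding factor 2 homolog (TRINITY_DN2786_c0_g1, 0.89) for TRINITY_DN13637_c0_g1, protein timeless homolog (TRINITY_DN1533_c0_g1, 0.86) for TRINITY_DN35174_c0_g1 and parathyroid hormone 2 receptor (TRINITY_DN8431_c0_g1, 0.74) for TRINITY_DN19200_c0_g1. The highest of so many correlations are large by selection.

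The summed level of genes known from dividing cells was also highest in trunk in the median over days, while its head and tail medians were close to each other. The 14 tested markers (PCNA, MCM helicase subunits, ribonucleotide reductase and histone H2B, all used in copying or packing DNA) summed to 251 to 498 CPM in trunk, 137 to 343 in head and 190 to 376 in tail, and 0 of them were without a count over the libraries of a fragment. By single library, trunk on day 0 was highest for the markers (498 CPM) and for the family (805 CPM), and head on day 0 was lowest for the markers (137 CPM). On day 5 trunk was the lowest fragment for the markers, at 303 CPM against 343 in head and 363 in tail. The median over days was 402 CPM in trunk, 236 in tail and 230 in head. Of these markers 9 of 14 were lower in head against trunk, where 21.7% of all tested unigenes were, but 2 under library totals and 1 with totals that leave out the most abundant unigene. In trunk against tail 4 of 14 were higher, where 18.1% of all tested unigenes were, and these scalings gave 13 and 2. In head against tail 0 were higher and 1 lower under TMM, and 6 higher and 0 lower under library totals.

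**Figure D5:**
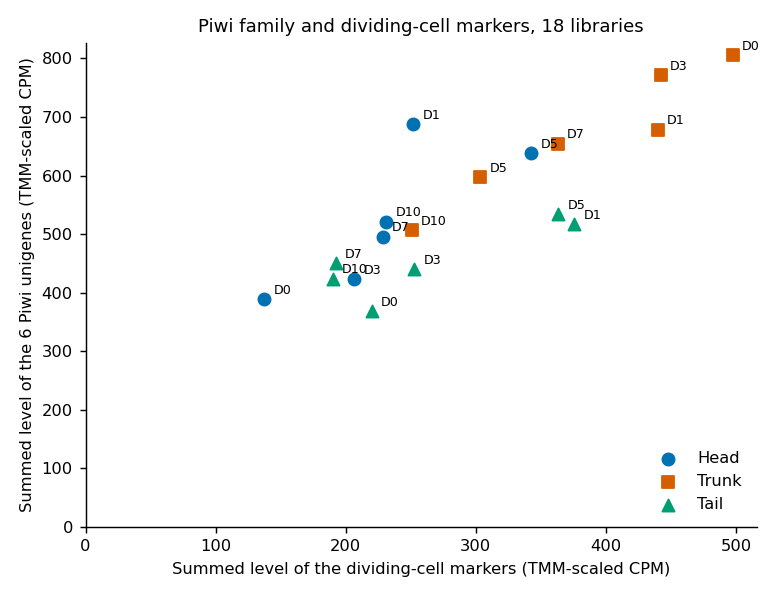
Summed TMM-scaled CPM of the 6 Piwi members (y axis) against that of the 14 dividing-cell markers (x axis), 1 point per library, labelled by day, for head (circles), trunk (squares) and tail (triangles). Trunk on day 0 is highest on both axes (498 and 805 CPM), and head on day 1 lies above the other libraries of similar marker level (252 and 688 CPM).

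Other tissues moved with the fragments too. The summed level of 26 gut markers (cathepsins and ferritins) was 6297 to 12061 CPM in trunk, 1661 to 3344 in tail and 2616 to 5104 in head. That of 18 muscle markers was 5642 to 9715 CPM in head, 10423 to 15151 in trunk and 11885 to 18042 in tail. That of 16 neuron markers was 1185 to 1339 CPM in head, 409 to 535 in trunk and 502 to 890 in tail. That sum did not stand for every neuron marker: 7 of the 16 were higher and 5 lower in head, both against trunk and against tail. That of 26 cilia markers was 1024 to 1615 in head, 1225 to 1717 in trunk and 1275 to 2201 in tail. The part of tissue make-up in the Piwi differences was not tested.

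The wider small-RNA machinery did not move as a block. Of 19 unigenes named for it, 14 were tested, of which 5 were higher and 1 lower in trunk than in tail, where 35.6% of all tested unigenes were called. The vasa-type helicase DDX4 (TRINITY_DN26403_c0_g1), a germ line and stem cell RNA helicase, was higher in trunk by 0.58 ± 0.13 (edgeR, adjusted p = 0.0019). PNLDC1 (TRINITY_DN16286_c0_g2), which trims the ends of piRNAs in mammals, was higher by 0.55 ± 0.13 (adjusted p = 0.00301), and Mov10l1 (TRINITY_DN1502_c0_g1), a helicase for piRNA precursors in mice, by 0.49 ± 0.12 (adjusted p = 0.00465). This Mov10l1 unigene was also higher in head than in tail, by 0.47 ± 0.12 (adjusted p = 0.00517). Another unigene of that name (TRINITY_DN2918_c1_g1) was not called in trunk against tail (0.17 ± 0.10, adjusted p = 0.199) or head against tail (0.26 ± 0.10, adjusted p = 0.0566).

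In head against trunk the same 14 gave 3 higher and 4 lower, where 39.6% of all tested unigenes were called. The small RNA 2'-O-methyltransferase (TRINITY_DN13551_c0_g1), which adds a methyl group to the ends of piRNAs, was lower in head than in trunk by -0.88 ± 0.17 (edgeR, adjusted p = 0.00052). It was lower in head than in tail by -1.17 ± 0.17 (adjusted p = 4.71e-05). Dicer-like protein 1 (TRINITY_DN30042_c5_g1), which cuts double-stranded RNA and is not needed for piRNAs in flies, was lower in head than in trunk by -0.37 ± 0.08 (adjusted p = 0.000968; -0.07 and not called under library totals), while the helicase TDRD9 (TRINITY_DN24429_c0_g2) was higher by 0.33 ± 0.08 (adjusted p = 0.00335). Argonaute-2 (TRINITY_DN4310_c1_g1), which uses other small RNAs, was higher in head than in tail by 0.39 ± 0.09 (adjusted p = 0.00198). Another unigene of that name (TRINITY_DN3331_c0_g1), named here after its values were seen, was lower by -0.28 ± 0.08 (adjusted p = 0.0105). A more abundant one (TRINITY_DN783_c1_g1, mean 242 CPM in head and 251 in tail) was not called, at -0.05 ± 0.07 (adjusted p = 0.602). In head against tail 3 were higher and 3 lower, where 38.0% of all tested unigenes were called. Most of these lower calls did not hold under library totals. Library totals turned the counts of higher and lower into 13 and 1 in head against tail and 5 and 1 in head against trunk, and totals without the most abundant unigene into 10 and 1 and into 7 and 1. The list's median log2 fold change was 0.10 in trunk against tail and -0.11 in head against trunk, and both changed sign with the scaling: without the most abundant unigene in the totals they were -0.0046 and 0.24. By edgeR 0 of the 14 were called in the F test over days, in the trend and in the slopes by fragment.

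The stem cell and cycling list, 33 tested of 69, included the 14 dividing-cell markers and gave 9 higher and 2 lower in trunk than in tail and 14 lower and 3 higher in head than in trunk. Of all tested unigenes 35.6% and 39.6% were called in these comparisons. In trunk against tail library totals gave 24 higher and 2 lower, and totals without the most abundant unigene 4 and 4. The list's medians were 0.34 and -0.38, against 0.00 and -0.00 over all tested unigenes. A scarce unigene described as DNA topoisomerase 2-alpha (TRINITY_DN25141_c0_g1), which untangles copied DNA, averaged 1.71 CPM in trunk and 0.93 in tail. It was higher in trunk by 1.08 ± 0.40 (edgeR, adjusted p = 0.0473, and 0.076 with totals that leave out the most abundant unigene). A far more abundant unigene of that name (TRINITY_DN1163_c0_g1, 95.3 and 95.4 CPM) was not called, at -0.00081 ± 0.095 (adjusted p = 0.996). Another (TRINITY_DN5409_c0_g1) was higher in trunk by 0.69 ± 0.18 (adjusted p = 0.00802). Cyclin-dependent kinase 1 (TRINITY_DN98_c0_g1), which drives entry into mitosis, was higher by 0.99 ± 0.29 (adjusted p = 0.0131), whereas a unigene described as Cyclin-dependent kinase 1-A (TRINITY_DN1119_c0_g1) was lower by -1.79 ± 0.25 (adjusted p = 0.000138).

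Among that list, the unigenes with the largest changes in head were nanos-related, CELF and Cyclin-dependent kinase 1-A unigenes. The nanos-related protein (TRINITY_DN37375_c0_g1), known from planarian germ cells, was lower in head than in trunk by -3.61 ± 0.45 (edgeR, adjusted p = 3.23e-05) and lower than in tail by -2.79 ± 0.46 (adjusted p = 0.000316). Cyclin-dependent kinase 1-A was lower in head than in tail by -1.52 ± 0.24 (adjusted p = 0.000289). CELF proteins 4 (TRINITY_DN690_c0_g1) and 5 (TRINITY_DN3078_c0_g1), RNA-binding proteins that are mostly neural in vertebrates, were higher in head than in trunk, both by 1.87. In head against tail 3 were higher and 3 lower under TMM, 21 and 2 under library totals and 7 and 3 without the most abundant unigene. CELF protein 4 was higher in head than in tail by 1.35 ± 0.20 (adjusted p = 0.000103). The trend over days called 3 of the 33, all rising and all CELF proteins: 5 by 0.37 ± 0.08 per log2(day + 1) (adjusted p = 0.0113), 4 by 0.36 ± 0.07 (adjusted p = 0.00549) and 3-A (TRINITY_DN530_c0_g1) by 0.23 ± 0.04 (adjusted p = 0.00401). The F test over days called 1 of the 33, and the slopes by fragment 1.

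Across the 18 libraries the median correlation of the 33 unigenes was 0.70 with DjPiwiA, 0.59 with DjPiwiB and 0.66 with DjPiwiC. The same medians were 0.34, 0.29 and 0.28 for the 14 small-RNA unigenes and 0.00, 0.01 and 0.00 over all tested unigenes. The 26 gut markers gave 0.44, 0.57 and 0.61. Single unigenes of the stem cell and cycling list ran from -0.56 to 0.94 with DjPiwiA. These values share the libraries and the scaling, and carry no test.

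Mobile elements, the classical targets of piRNAs, were called in both directions, with more called higher than lower in each fragment comparison. Of 1813 unigenes described as transposon-derived, 453 were tested, and 137 were higher and 29 lower in head than in tail. In head against trunk 86 were higher and 37 lower, and in trunk against tail 85 were higher and 36 lower. The share called of all tested unigenes was 38.0%, 39.6% and 35.6%. By direction, of all 23616 tested unigenes 4460 were higher and 4514 lower in head than in tail. In head against trunk these were 4209 and 5132, and in trunk against tail 4269 and 4134. Under library totals the counts of higher and lower were 358 and 2, 176 and 14, and 198 and 11 in the same order. Without the most abundant unigene in the totals they were 210 and 15, 221 and 15, and 67 and 52. The list's median log2 fold changes were 0.37, 0.15 and 0.17, against 0.02, -0.00 and 0.00 over all tested unigenes. A reverse transcriptase (TRINITY_DN14942_c0_g2), the enzyme that copies retrotransposon RNA into DNA, was higher in head than in tail by 5.44 ± 0.82 (edgeR, adjusted p = 6.18e-05), in head than in trunk by 2.39 ± 0.54 (adjusted p = 0.00206) and in trunk than in tail by 3.06 ± 0.998 (adjusted p = 0.0247).

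Other mobile-element unigenes went different ways. A transposon-derived SETMAR unigene (TRINITY_DN28864_c0_g1) was lower in head than in trunk by -2.51 ± 0.43 (edgeR, adjusted p = 0.000286) and had a falling trend of -0.58 ± 0.13 per log2(day + 1) (adjusted p = 0.0195). Other SETMAR unigenes were higher in head than in tail, TRINITY_DN18503_c0_g1 by 3.26 ± 0.47 (adjusted p = 4.31e-05) and TRINITY_DN1603_c0_g1 by 2.48 ± 0.28 (adjusted p = 3.01e-06). In trunk against tail TRINITY_DN18503_c0_g1 was higher by 2.11 ± 0.50 (adjusted p = 0.00348) and TRINITY_DN2058_c0_g2 by 1.91 ± 0.53 (adjusted p = 0.00989). A PiggyBac-derived unigene (TRINITY_DN4544_c0_g1) was lower in head than in trunk by -2.35 ± 0.37 (adjusted p = 9.24e-05). Over days 12 of the 453 were called by the F test, 4 rose and 3 fell in the trend, and 2 differed in slope between fragments, where 4.59%, 3.6% and 1.5% of all tested unigenes were called. Among those that rose was an R2DM-type element (TRINITY_DN61568_c0_g1), by 3.59 ± 0.77 per log2(day + 1) (edgeR, adjusted p = 0.0157). A 17.6-type element (TRINITY_DN2846_c0_g1) rose by 0.46 ± 0.09 per log2(day + 1) (adjusted p = 0.00756). The levels of these elements are not given here, so the size of a slope may rest on low counts. The correlation of the 453 with the abundant Piwi members was low in the median, at 0.12, 0.19 and 0.14 for DjPiwiA, DjPiwiB and DjPiwiC.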

How the data were processed

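Messenger RNA of Dugesia japonica was measured in 18 libraries, 1 for each of 3 fragments and 6 days. The authors deposited raw counts per unigene with protein descriptions, named so in the file header, and all of them were whole; since RSEM can give fractions, they may have been rounded. The submitters' processing notes name FastQC, fastp 0.20.0, Bowtie2 and RSEM, with no role given here. Strand use, the assembly and its annotation settings are not given in the sources used here. The file lists 267235 unigenes, 22624 of them without a count; 3 emptied lines and 18 other columns of per-sample values were not used. Near-identical sequences may share reads.

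CPM, TMM scaling and tests were computed with edgeR 4.0.16 (limma 3.58.1, R 4.3.3) on the 23616 unigenes that reached 1 CPM or more in 3 or more libraries. The quasi-likelihood test with robust fitting and Benjamini-Hochberg adjustment at 0.05 was run on fragment plus day (10 residual degrees of freedom), on a shared slope over log2(day + 1) (14) and on slopes by fragment (12). Approximate 95% intervals are the log2 fold change and its SE with the fit's residual degrees of freedom. They are not the intervals of the test. For TRINITY_DN19200_c0_g1 in head against tail the interval included 0 while the unadjusted p of edgeR was 0.0497. Poisson intervals cover counting error only; 3 counts, the floor for detection, were 0.106 to 0.249 CPM. The ± sign precedes an SE on the log2 scale and an SD on the CPM scale. Correlations used log2(CPM + 1).

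Alternatives were other scalings, DESeq2 1.42.0, other filters, no block, days 0 to 3 or 5 to 10 alone, day itself as time scale, and 18 fits that each left out a library; the scalings of list counts were added after seeing the data. The members and the gene lists, matched by protein name, were chosen with earlier results of these data known. Named genes were all members, up to 3 called unigenes of largest change per list and comparison, of which the text gives most, and the nearest 3 by correlation, of which it gives 1 for scarce members. Python 3.11.15, numpy 2.4.6, pandas 2.3.3, scipy 1.17.1 and matplotlib 3.10.9 were used for the rest.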

Additional observations from a re-analysis of the deposited data

How the results depend on the processing

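The members called in head against tail, 0 under TMM, were 5 under library totals and 4 under library totals without the most abundant unigene, where 71.3% and 45% of all tested unigenes were called. They were 2 with no filter on low counts, 1 with days 5 to 10 alone and 1 by DESeq2, where 3.54%, 27.1% and 39.2% were. Without the filter 8666 of 244611 unigenes were called, against 8974 of 23616 in the main fit. The low share there thus comes with the larger number tested. The members called in head against trunk, 2 under TMM, were 0 under both library-total scalings (45.2% and 53.1% of all tested unigenes). They were 1 without a block for day (35.1%), 1 with days 0 to 3 alone (26.7%) and 0 with days 5 to 10 alone (34.8%). Leaving out 1 library at a time gave 0 to 1 in head against tail, 0 to 2 in head against trunk and 3 to 4 in trunk against tail, and 0 for days, trend and slopes.

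Signs turned for members that were not called, and for TRINITY_DN643_c0_g1 in head against trunk, which was. In head against tail, TRINITY_DN2453_c0_g1 was -0.17 with days 0 to 3 alone and -0.023 to 0.251 with 1 library left out, and TRINITY_DN35174_c0_g1 was 0.43 under library totals and -0.517 to 0.039 with 1 library left out. In head against trunk, library totals gave 0.010 for TRINITY_DN3080_c0_g1 and 0.0081 for TRINITY_DN643_c0_g1, and totals without the most abundant unigene gave 0.069 and 0.068 for these and 0.015 for TRINITY_DN13637_c0_g1, which was 0.041 with days 5 to 10 alone. In the trend, TRINITY_DN2453_c0_g1 was -0.012 with day itself as time scale, and TRINITY_DN643_c0_g1 was 0.017 without the most abundant unigene and 0.0048 with no filter. With 1 library left out these trends ran from -0.068 to 0.067 and from -0.034 to 0.016. Apart from the shift of the median by scaling, the cause was not tested.

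In trunk against tail, TRINITY_DN13637_c0_g1 lost its call with days 0 to 3 alone (adjusted p = 0.133) and TRINITY_DN3080_c0_g1 with days 5 to 10 alone (adjusted p = 0.0526); both, and TRINITY_DN643_c0_g1, kept it in all 18 fits that left out a library. The scaling also moved the lists: in head against trunk, 14 lower of the stem cell and cycling list became 3 under library totals and 2 without the most abundant unigene, and the 5 higher and 1 lower of the small-RNA list in trunk against tail became 10 and 0, and 3 and 3. The main fit matched fragments by day; each fragment and day held 1 library, so there was no replicate number to match on. Depth limited TRINITY_DN35174_c0_g1 and TRINITY_DN19200_c0_g1, at 1 to 41 counts per library; the latter left the test in 3 of the fits without a library.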
